A study of Mus musculus with 8 samples.

Results

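The transcription factors and cofactors that run myelination in Schwann cells were followed through the sciatic nerves of 4 mouse genotypes. The set holds 10 genes, Egr2, Sox10, Pou3f1, Pou3f2, Nab1, Nab2, Yy1, Zeb2, Nfatc4 and Hmga1, of the 23356 genes with an expression value. They were chosen by name, with earlier results of these data known. All 10 passed the filter on low values, a mean of at least 1 FPKM (fragments per gene length, scaled to the library) over the 8 libraries, as did 12530 genes in all.

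RNA was sequenced from nerves of 30-day-old mice, all F1 animals of C57BL/6 and FVB/N, with 2 libraries per genotype. The genotypes were wild type (WT), Q215X/+ (heterozygous for the Q215X mutation), HA-NRG1 type III/+ (carrying a neuregulin 1 type III transgene) and HA-NRG1 type III/+:Q215X/+, which has both alleles and is called the double. The series asks whether this neuregulin lessens the disease of a mouse with congenital hypomyelination neuropathy. The promoter that drives the transgene, the number of founder lines and whether a library is 1 mouse or a pool were not given in the sources used here, so the p-values below measure only the spread between libraries, which may be technical.

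Axonal type III neuregulin is the signal that tells a Schwann cell to myelinate, through ERBB2 and ERBB3 receptors. SOX10, the lineage factor of Schwann cells, and the POU factors POU3F1 (Oct6) and POU3F2 (Brn2) switch on Egr2 (Krox20), which with SOX10 activates the genes of myelin proteins and lipids. NAB1 and NAB2 bind EGR proteins as cofactors, YY1 and the calcineurin effector NFATC4 act on Egr2 itself, and ZEB2 represses the genes that hold Schwann cells immature. HMGA1 is a small chromatin protein that binds AT-rich DNA and bends it for other factors.

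Of 6 Schwann cell markers, 5 were at 16.7 FPKM or more in every library, with S100b the highest at 356 to 949, and Gfra3 was low at 0.811 to 2.39. Their summed level was 611 to 1177 FPKM. Nrg1 itself stood at 0.164 to 0.498 FPKM. Total FPKM per library was 443733 to 530901, and relative depth, read from the steps between low values, was 0.727 to 1.09 with the first WT library as 1. The 2 columns of each genotype end in 0 or 1, and the suffix 0 and suffix 1 libraries differed across all genotypes, so differences are also given within a suffix and from a fit with the suffix as a replicate block. Pairs of library values are given with suffix 0 first. The sex-linked genes Xist and Ddx3y read WT and the double as female in both libraries, Q215X/+ as male in both, and HA-NRG1 type III/+ as male in suffix 0 and female in suffix 1. Sex and genotype cannot be told apart in Q215X/+ against WT or in the double against Q215X/+. In bulk nerve, fewer Schwann cells and less RNA per Schwann cell cannot be told apart either.

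The levels of the 10 factors, per transcript length, kept nearly the same order in the 4 genotypes. In WT, Sox10 was the most abundant at 202 ± 7.07 FPKM (SD, n = 2), followed by Egr2 at 60.6 ± 16.0, Zeb2 at 38.2, Nab2 at 32.1, Nab1 at 28.5, Yy1 at 24.0 and Pou3f1 at 19.2. Nfatc4 at 3.57, Pou3f2 at 2.21 and Hmga1 at 2.01 FPKM were low. Neighbours in this order did not overlap in WT apart from Pou3f2 and Hmga1. Nab1 and Nab2 overlapped in Q215X/+ and the double and changed places with the transgene, where Nab1 had the higher mean. In the double, Pou3f2 reached the level of Nfatc4.

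**Figure D1:**
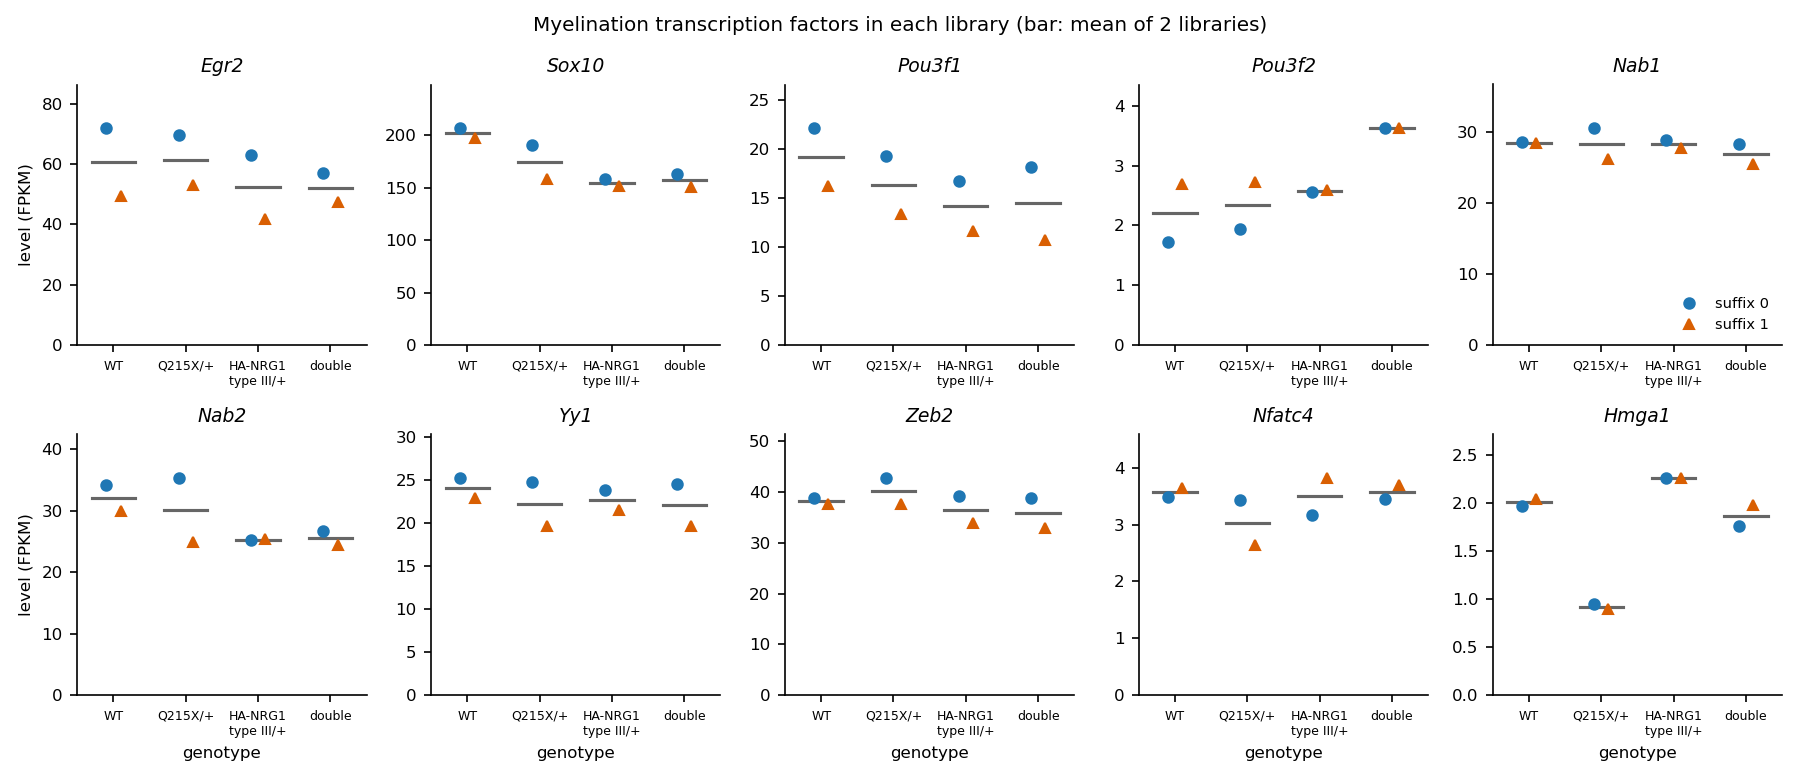
Expression (FPKM, y axis from 0) of the 10 factors in each library, by genotype; circles are suffix 0 libraries, triangles suffix 1 libraries, and bars the mean of 2. Sox10 is highest in both WT libraries, Pou3f2 in both double libraries, and Hmga1 is under 1 FPKM only in the Q215X/+ libraries.

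No factor was called in the main fit, and 3 were called with the block. The main fit (limma on log2(FPKM + 1), 4 group means) called 0 of the 10 at a Benjamini-Hochberg adjusted p under 0.05 in every comparison. The same fit called 0.00798% of all genes tested in Q215X/+ against WT, 0.0638% in HA-NRG1 type III/+ against WT, 0.0399% in the double against Q215X/+, 0.112% in the double against WT and 0.99% for the transgene over both backgrounds, the average of its differences in WT and in the mutant nerve. At an unadjusted limma p under 0.05 stood 1, 1, 2, 2 and 3 of the 10 factors in that order, against 2.04%, 6.9%, 6.58%, 7.29% and 11.2% of all genes. With the replicate block, limma called 3 of the 10 for the transgene over both backgrounds, where it called 7.1% of all genes: Sox10 and Pou3f1 fell (3.69% of all genes were called lower) and Hmga1 rose (3.42% were called higher). In the double against Q215X/+ the block called Hmga1 higher, with 1.72% of all genes called and 0.854% called higher. The block called 0 of the 10 in Q215X/+ against WT (0.00798% of all genes), HA-NRG1 type III/+ against WT (2.11%) and the double against WT (2.39%), and the 10 factors had 3, 4 and 4 at an unadjusted p under 0.05 there (7.41%, 17.5% and 17.9% of all genes). In the double against Q215X/+ that count was 4 (15.7%), and for the transgene over both backgrounds it was 7 (23.3%). The 4 calls were not made without the block. With a term for sex beside the block, which leaves 2 residual degrees of freedom, they did not pass, while the differences were as large: −0.28 for Sox10 (limma adjusted p = 0.0897), −0.31 for Pou3f1 (0.0953) and 0.36 for Hmga1 (0.0897) over both backgrounds, and 0.61 for Hmga1 in the double against Q215X/+ (0.731).

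Sox10 (chr15:79154908-79165240, minus strand, GRCm38) was at 207 and 197 FPKM in the WT libraries of suffix 0 and 1, at 191 and 158 (Q215X/+), 158 and 151 (HA-NRG1 type III/+) and 163 and 151 (double). Both WT libraries lay above all 6 others, and both transgenic groups lay below WT without overlap. The mean was 23.4% lower in HA-NRG1 type III/+ than in WT, 22.2% lower in the double than in WT and 13.6% lower in Q215X/+ than in WT. Within suffix 0 and suffix 1 the log2 difference was −0.38 and −0.38 for HA-NRG1 type III/+ against WT, and −0.22 and −0.07 for the double against Q215X/+. The average transgene difference was −0.26 (SE 0.09 without the block, limma adjusted p = 0.303; SE 0.05 and adjusted p = 0.0303 with it). For HA-NRG1 type III/+ against WT alone it was −0.38 (SE 0.12, limma adjusted p = 0.504, and 0.0553 with the block), and the double against WT, which shares the WT libraries, had −0.36 (adjusted p = 0.538, and 0.0584 with the block). The transgene difference was not shown to depend on the background (interaction 0.24, SE 0.17, limma adjusted p = 1 and 0.965 with the block).

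Egr2 (chr10:67535475-67542188, plus strand), the factor that drives the myelin programme, was not called in Q215X/+ against WT. The WT libraries stood at 71.9 and 49.3 FPKM, those of Q215X/+ at 69.7 and 53.2, with means 1.42% apart. The log2 difference was 0.03 (95% confidence interval −0.61 to 0.67, and −0.18 to 0.24 with the block). In HA-NRG1 type III/+ Egr2 was at 63.0 and 41.9, and in the double at 56.9 and 47.3. The suffix 0 library was above the suffix 1 library in all 4 genotypes, and the ranges of the genotypes overlap. Within a suffix, each transgenic library was below its partner: −0.19 and −0.23 on the log2 scale in HA-NRG1 type III/+ against WT, and −0.29 and −0.16 in the double against Q215X/+. The average of −0.22 did not pass the test (95% confidence interval with the block −0.36 to −0.07, limma adjusted p = 0.0912 with the block and 0.84 without). A sex term moved this average to −0.07 without the block and −0.17 with it, and turned the double against Q215X/+ from −0.23 to 0.35 without the block. The same term moved Q215X/+ against WT from 0.03 to −0.55 without the block and −0.15 with it. Only HA-NRG1 type III/+ holds both sexes, and its male library is suffix 0 and its female library suffix 1. Without the block the sex term rests on those libraries alone and cannot tell sex from suffix.

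Pou3f1 (chr4:124656807-124660655, plus strand), the POU factor of the promyelinating stage, was likewise lower with the transgene. Its libraries stood at 22.2 and 16.3 FPKM (WT), 19.3 and 13.4 (Q215X/+), 16.7 and 11.7 (HA-NRG1 type III/+), 18.2 and 10.8 (double). As with Egr2, suffix 1 was lower in every genotype (on average −0.53 on the log2 scale for Pou3f1 and −0.44 for Egr2, beside a median of 0.03 over all genes). For Pou3f1, WT was the highest genotype within each suffix. The transgene difference was −0.39 and −0.45 in WT and −0.08 and −0.29 in the mutant nerve for suffix 0 and 1. Over both backgrounds Pou3f1 fell by 0.30 with the block (SE 0.05, limma adjusted p = 0.0298), and the fit without the block had SE 0.22 and adjusted p = 0.774. In HA-NRG1 type III/+ against WT it was at −0.42 (limma adjusted p = 1, and 0.0578 with the block). In the double against Q215X/+ it was at −0.18, and at 0.30 with a sex term and no block (−0.24 with both). As for Egr2, the sex term without the block cannot tell sex from suffix. Of its exon bases, 8.57% overlap Gm2164 on the opposite strand, which was not analysed here.

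Pou3f2, which overlaps in function with Pou3f1, was low, with its highest values in the double. It stood at 1.72 and 2.70 FPKM (WT), 1.95 and 2.72 (Q215X/+), 2.55 and 2.60 (HA-NRG1 type III/+), 3.63 and 3.63 (double). Both double libraries were above the other 6. The double exceeded Q215X/+ by a log2 difference of 0.48 (SE 0.17, a ratio of means of 1.55), which was not called (limma adjusted p = 0.648, and 0.153 with the block), and WT by 0.54 (adjusted p = 0.497, and 0.1 with the block). For suffix 0 the ratio of Pou3f2 to Pou3f1 was 0.0777 (WT), 0.101 (Q215X/+), 0.153 (HA-NRG1 type III/+) and 0.199 (double). For suffix 1 it was 0.166, 0.203, 0.223 and 0.337. The genotypes thus had the same order of ratios in both suffixes, while the ratios of the suffixes overlapped across genotypes.

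**Figure D2:**
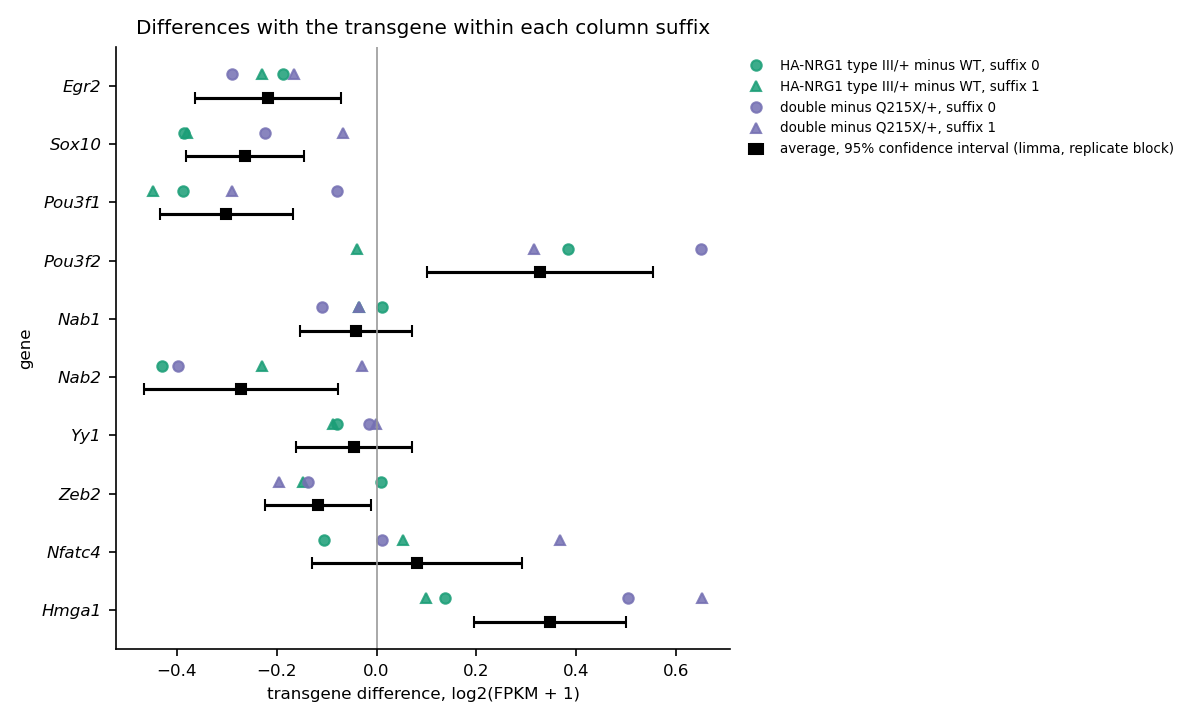
Transgene differences of the 10 factors on the log2(FPKM + 1) scale (x axis): colored points are the differences within suffix 0 (circles) and suffix 1 (triangles), in WT (green) and in the mutant nerve (purple), and black squares their average with the 95% confidence interval of the fit with the replicate block. All 4 points are below 0 for Egr2, Sox10, Pou3f1, Nab2 and Yy1, and above 0 for Hmga1.

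In 6 of the 10 factors all 4 within-suffix transgene differences had one sign, against 32% of all genes tested. Egr2, Sox10, Pou3f1, Nab2 and Yy1 were lower 4 of 4 times (17.5% of all genes) and Hmga1 was higher 4 of 4 times (14.5%). For Yy1 the smallest of the 4 was −0.000594, in effect no difference. The median over the 10 was −0.08, beside −0.01 over all genes. For groups whose libraries did not overlap, the counts were 3 of 10 in Q215X/+ against WT (18.9% of all genes), 3 in HA-NRG1 type III/+ against WT (30.5%), 3 in the double against Q215X/+ (29.9%) and 4 in the double against WT (31.1%), so in the last 3 the share was near that of all genes. The first 3 were Sox10, Nfatc4 and Hmga1, all lower in Q215X/+.

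Neither of the cofactors NAB1 and NAB2 was called. Nab1 was at 28.6 and 28.5 FPKM (WT), 30.6 and 26.2 (Q215X/+), 28.8 and 27.8 (HA-NRG1 type III/+), 28.3 and 25.6 (double). Its transgene difference over both backgrounds had a 95% confidence interval of −0.15 to 0.07 with the block, and that of Nab2 was −0.47 to −0.08. Whether the 2 genes differ was not tested. Nab2 was at 34.3 and 29.9 FPKM (WT), 35.4 and 25.0 (Q215X/+), 25.2 and 25.4 (HA-NRG1 type III/+), 26.6 and 24.5 (double). Both transgenic groups lay below both WT libraries, while the Q215X/+ libraries spanned the range. The difference from WT was −0.33 in HA-NRG1 type III/+ (SE 0.16, limma adjusted p = 0.831, and 0.217 with the block) and −0.31 in the double, which shares the WT libraries (adjusted p = 0.839, and 0.229 with the block). Of the exon bases of Nab2, 35.7% overlap Gm16229, 5.13% Nemp1 and 1.36% Stat6, all on the opposite strand. The sources used here do not give whether counting used strand, so reads from these genes may be counted with Nab2. Stat6 was steady, at 37.7 to 43.2 FPKM, and Gm16229 and Nemp1 were not analysed here.

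Of the 8 factors whose promoters were searched, Nab1 was the one with EGR motifs just upstream of its start. EGR proteins bind GC-rich sites such as GCGTGGGCG and GCGGGGGCG, which no stretch can match at once. On either strand of the 250 bases before the start, the first occurs in 0.536% and the second in 2.58% of 32817 mouse promoters (RefSeq, GRCm38), and both in 0.049%. The Nab1 window holds GCGTGGGCG at −109 to −101 and, on the opposite strand, at −141 to −133, and GCGGGGGCG at −38 to −30 from the start. The promoters of Sox10 and Pou3f1 were not searched. A match of letters describes the window and not a bound site.

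Yy1, Zeb2 and Nfatc4 were not called in any comparison, with or without the block. Yy1, a zinc finger factor that acts on Egr2 in response to neuregulin, ranged from 19.6 to 25.3 FPKM, with suffix 1 lower in all 4 genotypes and the genotypes overlapping. Zeb2, the repressor of immature and repair genes, stood at 38.9 and 37.6 FPKM (WT), 42.8 and 37.7 (Q215X/+), 39.2 and 33.8 (HA-NRG1 type III/+), 38.9 and 32.8 (double). Its transgene difference over both backgrounds was −0.12 (95% confidence interval with the block −0.22 to −0.01), with a limma adjusted p = 0.177 with the block. For Nfatc4 the mean was 15.1% lower in Q215X/+ than in WT and 17.9% higher in the double than in Q215X/+. The log2 differences were −0.19 and 0.19 (SE 0.13 for each, limma adjusted p = 0.786 and 0.522 with the block). Nfatc4 ran from 2.64 to 3.83 FPKM, with the lowest value in the suffix 1 library of Q215X/+. In that library 6 skeletal muscle genes summed to 750 FPKM, against 2.45 to 60.1 in the others. The red blood cell and adipocyte markers also summed higher there than in any other library, to 1279 and 756 FPKM. The part of muscle, blood or fat RNA in that Nfatc4 value was not tested. Nor was it tested for the other factors in that library, among them Sox10 (158 FPKM) and Nab2 (25.0 FPKM).

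Hmga1 (chr17:27556497-27563674, plus strand) showed the widest spread of the 10, at 1.97 and 2.05 FPKM (WT), 0.95 and 0.894 (Q215X/+), 2.27 and 2.26 (HA-NRG1 type III/+), 1.76 and 1.98 (double). Both Q215X/+ libraries were at about 0.46 of the WT mean, well apart from all others. Of the 50-base words of its transcripts, 55.0% also occur in transcripts of other genes, and the way in which such reads were assigned was not given in the sources used here, so every value of Hmga1, the gap between Q215X/+ and WT included, is uncertain. Of its exon bases, 4.8% overlap AI413582 on the opposite strand, a gene at 25.4 to 42.8 FPKM, and reads from it may be counted with Hmga1. The shares of words and of bases are not separate, since words were sought on both strands.

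In Q215X/+ against WT, Hmga1 was at −0.65 (SE 0.09, limma unadjusted p = 0.00031), which was not called (adjusted p = 0.695, and 0.221 with the block). In the double against Q215X/+, the ratio of means was 2.03, and Hmga1 rose by 0.58 with the block (limma adjusted p = 0.0428, and 0.165 without). Over both backgrounds the transgene difference was 0.35 (limma adjusted p = 0.0289 with the block, and 0.0811 without). This average joins 0.58 in the mutant nerve with 0.12 in HA-NRG1 type III/+ against WT (limma adjusted p = 0.554 with the block). The double was at −0.07 against WT (limma adjusted p = 0.75 with the block). The interaction was 0.46 (SE 0.13, limma unadjusted p = 0.011), which was not called (adjusted p = 0.965 with the block). Sex differs between the groups of the first 2 of these comparisons. It is also unbalanced in the transgene difference over both backgrounds, which includes the double against Q215X/+.

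With 1 library fewer, which leaves 2 residual degrees of freedom, most calls with the block were lost while the differences kept their sign and much of their size. Without each library in turn, the transgene difference over both backgrounds was −0.31 to −0.22 for Sox10, −0.36 to −0.24 for Pou3f1 and 0.32 to 0.38 for Hmga1. The limma adjusted p for the transgene over both backgrounds was 0.0291 to 0.165 for Sox10, 0.0546 to 0.122 for Pou3f1 and 0.0446 to 0.148 for Hmga1. Sox10 was still called without the suffix 1 library of Q215X/+, where Nab2 (−0.37, adjusted p = 0.0333) was called as well, and Hmga1 without the suffix 0 library of Q215X/+. Hmga1 in the double against Q215X/+ was at 0.52 to 0.63 (adjusted p = 0.0835 to 0.353), and without a library of WT or HA-NRG1 type III/+, which are not in that comparison, the difference was the same 0.58 and was not called. In the other direction, Sox10 was called in HA-NRG1 type III/+ against WT and in the double against WT with the block when either Q215X/+ library was left out (adjusted p = 0.048 to 0.0496).

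Among relatives of the 10 factors, Zeb1 was called higher with the transgene, in the fit with the block alone. Calls with the block for Zeb1 and the other listed genes below were not checked with a sex term or with 1 library fewer. Of 14 family members read here, 10 passed the filter, and for the transgene over both backgrounds limma with the block called 2 higher (3.42% of all genes) and 0 lower (3.69%). These were Zeb1 and Hmga2, but Hmga2 passed the filter only through the libraries where it is high, so its values are a description. Hmga2, the sister gene of Hmga1 that is mostly silent in adult tissue, stood at 0.576 and 0.472 FPKM (WT), 0.468 and 0.397 (Q215X/+), 2.28 and 1.21 (HA-NRG1 type III/+), 1.76 and 1.24 (double). Its 4 transgenic libraries were above the other 4. Zeb1, the close relative of Zeb2, was at 19.3 and 18.1 FPKM (WT), 22.8 and 19.3 (Q215X/+), 24.7 and 22.0 (HA-NRG1 type III/+), 26.9 and 24.0 (double), and rose by 0.29 (limma adjusted p = 0.0124 with the block and 0.224 without).

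Egr1 and Egr3, relatives of Egr2 that mark immature Schwann cells and fast responses, were not called. Egr1 was at 3.59 and 4.02 FPKM (WT), 3.33 and 5.40 (Q215X/+), 4.91 and 4.66 (HA-NRG1 type III/+), 7.03 and 7.45 (double) (transgene difference 0.46, SE 0.13, limma adjusted p = 0.0544 with the block and 0.207 without). Egr3 had a difference of 0.41 (adjusted p = 0.0709 with the block). Pou3f3, Pou3f4 and Egr4 are listed at 0 in at least 1 library.

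**Figure D3:**
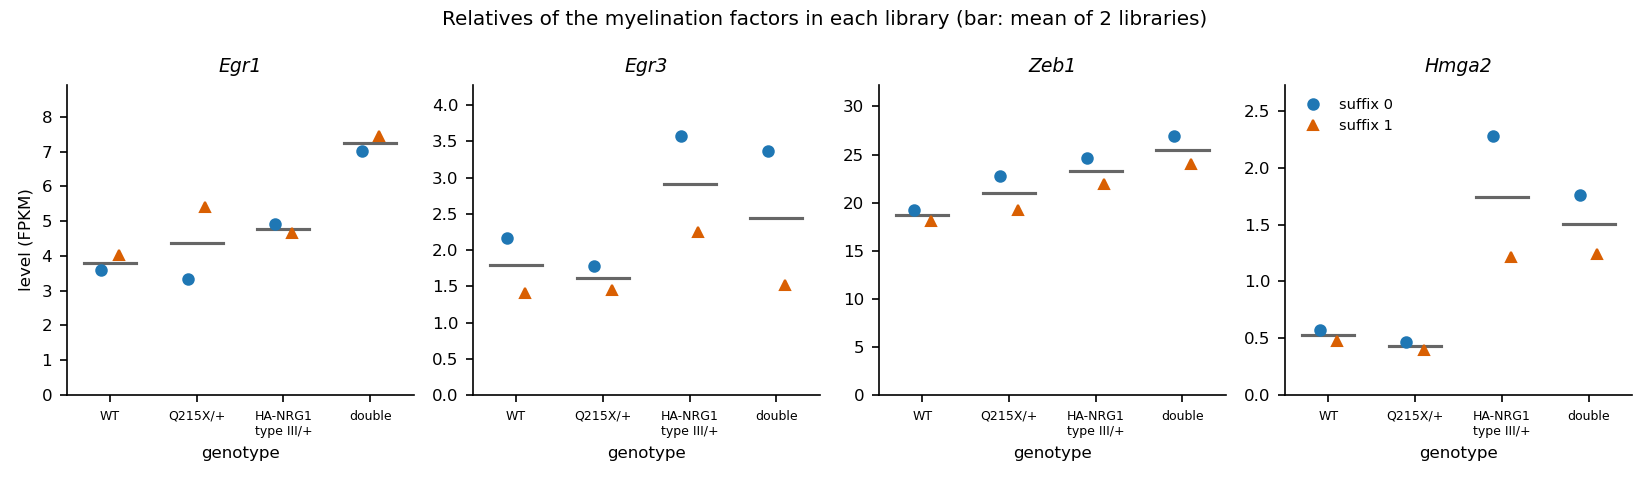
Expression (FPKM, y axis from 0) of the relatives Egr1, Egr3, Zeb1 and Hmga2 in each library, by genotype; circles are suffix 0, triangles suffix 1, bars the mean of 2 libraries. Hmga2 is at 1.21 to 2.28 FPKM in the 4 transgenic libraries and at 0.397 to 0.576 in the other 4, and Egr1 is highest in both double libraries.

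Among 12 listed genes that hold back myelination, 11 passed the filter. With the block, limma called 1 higher (3.42% of all genes) and 0 lower (3.69%) for the transgene over both backgrounds, with a median of 0.16 beside −0.01 over all genes. The gene was Hey1, an effector of Notch signalling, with a difference of 0.38 (limma adjusted p = 0.0313 with the block and 0.244 without). Jun, the factor of the repair state, stood at 15.0 to 20.8 FPKM over the libraries with a difference of −0.01. Of the 15 chromatin partners (histone deacetylases, the NuRD and Polycomb complexes and coactivators) limma called 0 with and without the block, with 0 at an unadjusted p under 0.05 (11.2% of all genes) and 4 with the block (23.3%); those with the smallest p were Mta2 at −0.10 and Ezh2 at −0.12. Of the 7 genes of the calcineurin pathway, upstream of NFATC4, it called 0 in both fits, with 0 at an unadjusted p under 0.05 in either, and Ppp3cc at −0.14 and Rcan1 at 0.09 had the smallest p.

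Known targets of EGR2 and SOX10 were read beside the factors. Of 18 targets read here, 14 were below 0 for the transgene over both backgrounds, with a median of −0.10 beside −0.01 over all genes. The main fit called Pmp2 higher and Cnp lower (0.99% of all genes in either direction), and the block called 1 higher (3.42%) and 5 lower (3.69%). Cnp, a phosphodiesterase of non-compact myelin, was at 844 and 963 FPKM (WT), 820 and 897 (Q215X/+), 453 and 522 (HA-NRG1 type III/+), 454 and 503 (double), a fall of 0.87 (SE 0.11, limma adjusted p = 0.0332). Pmp2, a fatty acid binding protein of myelin, rose by 0.95 (SE 0.14, adjusted p = 0.0467), against the direction of Sox10 and Pou3f1. Fa2h, Erbb3, Mal and Sh3tc2 fell with the block alone, among them Erbb3, the neuregulin receptor, by 0.33 (limma adjusted p = 0.0159). In Q215X/+ against WT, limma called 0 of the 18 with and without the block, with 1 at an unadjusted p under 0.05 (2.04% of all genes) and 3 with the block (7.41%).

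Some cell type markers moved with the transgene, where the block called 3.42% of all genes higher and 3.69% lower. Of 6 Schwann cell markers, limma with the block called S100b higher (difference 0.60, adjusted p = 0.00725) and Erbb3 and Gfra3 lower, with a median of −0.15 over the list. Of the 9 macrophage markers, 8 were above 0 with a median of 0.22, and the block called Cx3cr1 higher and Cd163 lower. The macrophage list summed to 406 to 444 FPKM in the 4 libraries without the transgene and to 430, 576, 455 and 555 in those with it. The fibroblast list summed to 5573 to 6533 without and 6571 to 7218 with it. With the block, limma also called Lum of the 6 fibroblast markers higher, Kdr of the 7 endothelial markers lower and 4 of the 5 red blood cell markers lower (Hbb-b2 among them, which passed the filter only through Q215X/+), and 0 of the perineurial, adipocyte, skeletal muscle and lymphocyte and mast cell markers. Of the 7 endothelial markers, 6 were above 0, with a median of 0.10 over the list, and Kdr was the 1 below 0. The part of any of these cell types in the lower Sox10 and Pou3f1 was not tested.

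Genes whose levels over the 8 libraries were most like those of Egr2, after the mean of each suffix was taken out, were Glyr1 (Pearson r = 0.99), Pagr1a (0.98) and Birc2 (0.98). For Sox10 they were Tax1bp3 (0.99), Itpripl2 (0.99) and Caskin2 (0.99). They are the highest of all genes tested, the libraries share genotype and suffix, and r depends on the centring: without it, r was 0.78 for Glyr1, −0.25 for Pagr1a and −0.17 for Birc2 with Egr2, and 0.16 for Tax1bp3, 0.95 for Itpripl2 and 0.92 for Caskin2 with Sox10.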

How the data were processed

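Libraries were made from poly A selected RNA with the Illumina TruSeq kit, per the labels' protocols. The authors deposited 1 table of FPKM values for 8 libraries. Per the submitters' processing notes, TopHat2 2.0.9, Cufflinks 2.2.0 and build mm10 were used; settings, annotation and strand handling were not given in the sources used here. Column name stems gave the genotype. One stem is an abbreviation (of HA-NRG1 type III/+, by elimination, since each other genotype has a stem of its own). FPKM holds no counts, so no counting interval is given.

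Values were analysed as log2(FPKM + 1), which understates differences of low genes, in R 4.3.3 with limma 3.58.1 (eBayes with trend, 4 residual degrees of freedom) on 12530 genes averaging 1 FPKM or more. Calls are at a Benjamini-Hochberg adjusted p under 0.05 over all genes. The fit was tested on simulated data. The planted differences were larger than those of the factors and lay in genes above the level of Hmga1, Pou3f2 and Nfatc4. How the fit does at smaller differences or lower levels was not tested. Column suffixes were checked as pairs before calls were compared: library deviations correlated at 0.118 to 0.304 in all 6 pairs of genotypes, and PC1 (24.9% of the variance) separated the suffixes. They were treated as paired from the data, not from a label, in a fit with 3 residual degrees of freedom.

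The 10 factors and all gene lists were chosen with earlier results of these data known. All 10 factors are named, and of other lists up to 3 called genes or 2 with the smallest p, as the rule for named genes; Jun, Egr1, Egr3, Hbb-b2, Stat6, Fa2h, Erbb3, Mal and Sh3tc2 fall outside it and were chosen after their values were seen. Positions and promoters came from GENCODE M21 and RefSeq on GRCm38. Alternatives were another pseudocount, no filter, another scaling, the block, a sex term, no trend, no short RNA and leaving out each library. Some listed genes are not reported here and are left out of the list counts.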

Additional observations from a re-analysis of the deposited data

How the results depend on the processing

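The counts of factors called stayed at 0 in every comparison without the replicate block, under pseudocount 0.1, no filter, median-of-ratios scaling, no trend, a sex term, no short RNA genes and without any one library. With the block the count was 1 in the double against Q215X/+ and 3 for the transgene over both backgrounds; without each library in turn the block gave 0 to 2 for the transgene over both backgrounds and 0 to 1 for HA-NRG1 type III/+ against WT and the double against WT. The block changed no other call of the 10 factors. Over all genes, the block called 265 (8 without it) in HA-NRG1 type III/+ against WT, 216 (5) in the double against Q215X/+, 299 (14) in the double against WT and 890 (124) for the transgene over both backgrounds. The counts over all genes that follow are from fits without the block and are to be set beside the counts in brackets. Without a filter they were 0, 3 and 59 for HA-NRG1 type III/+ against WT, the double against Q215X/+ and the transgene. In Q215X/+ against WT the count was 2 (main fit 1). A sex term gave 8 in Q215X/+ against WT, 9 in the double against Q215X/+, 22 for the transgene and 9 (1) for the interaction. Without short RNA genes the counts were 0 in Q215X/+ against WT, 9 in the double against Q215X/+, 26 in the double against WT and 0 for the interaction. Without each library in turn they were 1 to 15, 1 to 10, 1 to 17, 4 to 17, 11 to 42 and 3 to 11 for Q215X/+ against WT, HA-NRG1 type III/+ against WT, the double against Q215X/+, the double against WT, the transgene and the interaction; fewer libraries leave fewer degrees of freedom, and otherwise the cause was not tested. Of 24 differences of the factors with an unadjusted p under 0.05 in either fit, 4 changed sign in some setting: Pou3f1 in Q215X/+ against WT ran from −0.48 to 0.021 when 1 library was left out (0.021 without the suffix 1 library of Q215X/+), Egr2 in HA-NRG1 type III/+ against WT from −0.50 to 0.081 (0.06 without the suffix 0 library of WT and 0.081 without the suffix 1 library of HA-NRG1 type III/+), and with a sex term Egr2 was 0.35 and Zeb2 0.041 in the double against Q215X/+. Those fits had no block, and the first 3 compare unequal suffixes. Without the block, the sex term rests on the HA-NRG1 type III/+ libraries alone, which also differ in suffix, so it cannot tell sex from suffix. Of the other 36 differences, 30 changed sign in some setting. FPKM values hold no counts, so what depth limits could not be given.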
